A study of Homo sapiens with 6 samples.

Results

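Box C/D small nucleolar RNAs (snoRNAs) were followed in MDA-MB-231, an established line of triple-negative breast cancer cells. They were taken as all genes whose only symbol in the platform annotation begins with SNORD and a digit, each with 1 probe set. Among 18417 measured genes, 69 such genes lay outside the SNORD113, SNORD114, SNORD115 and SNORD116 tandem clusters and 46 belonged to those 4 clusters. In 3 cultures the cells received YW3-56 at 10 µM for 8 h, and in the other 3 they received the vehicle DMSO. All cultures were grown in medium with serum and penicillin-streptomycin, and no genotype or transgene separates the groups. YW3-56 is known as an inhibitor of peptidylarginine deiminases, enzymes that turn arginine in proteins into citrulline. Levels are RMA values on the log2 scale from 1 Affymetrix array per culture, so a difference of 1 is a 2-fold change. Total RNA was taken with silica columns, which are known to retain short RNAs poorly. RMA makes the arrays' intensity distributions equal, and a shift of all transcripts together would not be seen.

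Box C/D snoRNAs are short nucleolar RNAs that carry conserved C and D sequence boxes. They assemble with the methylase fibrillarin, NOP56, NOP58 and SNU13, and most base-pair with ribosomal RNA to direct methylation of its ribose, while a few, such as U3, U13, U14 and U22, act in processing of the ribosomal RNA precursor. In human cells most are not transcribed on their own. They are cut out of introns of host genes, which encode ribosomal proteins, translation factors or noncoding RNAs such as GAS5 and the SNHG genes. The SNORD113 and SNORD114 copies lie in an imprinted locus on chromosome 14, and the SNORD115 and SNORD116 copies lie in the Prader-Willi region on chromosome 15.

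All of these genes matched a RefSeq gene (assembly GRCh38.p14), with lengths of 60 to 205 nt and a median of 81 nt. The markers of the cell line, VIM, CD44, CAV1, AXL and MSN, had mean levels at percentiles of 99.5 to 99.7 among all genes, whereas ESR1, PGR, CDH1, PTPRC and PECAM1 were at the 22.4 percentile or below. The markers EPCAM and COL3A1 lay at percentiles of 39.1 and 39.8. The medians of the 6 arrays lay between 7.55 and 7.74. In a fit with array weights, DMSO replicate 1 received the lowest weight, 0.331, and DMSO replicate 2 the highest, 2.94. In bulk RNA, fewer cells that make a transcript and less of it per cell cannot be told apart. A probe set also cannot separate a mature snoRNA from the unspliced intron that holds it, and near-identical copies may share probes.

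The starts of several host genes are shown as examples of noncoding and coding hosts that have, or lack, a pyrimidine run where transcription starts. Each line gives the first 50 transcribed bases from RefSeq (GRCh38.p14), 5′ to 3′, and capitals mark a run of C and T that begins with C at the annotated start. Such a pyrimidine run at the start is the feature that defines 5′ terminal oligopyrimidine transcripts, a class that includes ribosomal protein mRNAs. The positions are chr20:49278642-49278691 on the plus strand for ZFAS1, chr6:85678684-85678733 on the minus strand for SNHG5, chr6:31834916-31834965 on the plus strand for SNHG32 and chr16:2155309-2155358 on the minus strand for SNHG19. They are chr11:62855836-62855885 on the minus strand for SNHG1, chr1:173868996-173869045 on the minus strand for GAS5, chr19:49487608-49487657 on the plus strand for RPL13A, chr11:75399518-75399567 on the plus strand for RPS3 and chr5:138575352-138575401 on the minus strand for HSPA9.
ZFAS1: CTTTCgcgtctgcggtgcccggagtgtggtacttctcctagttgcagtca
SNHG5: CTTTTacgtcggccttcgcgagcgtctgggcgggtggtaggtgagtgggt
SNHG32: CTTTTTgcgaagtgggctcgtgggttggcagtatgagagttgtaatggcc
SNHG19: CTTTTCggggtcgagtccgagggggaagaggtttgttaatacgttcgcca
SNHG1: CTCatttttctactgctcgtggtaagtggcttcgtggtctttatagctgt
GAS5: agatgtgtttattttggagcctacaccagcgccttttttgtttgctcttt
RPL13A: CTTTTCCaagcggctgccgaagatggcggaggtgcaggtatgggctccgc
RPS3: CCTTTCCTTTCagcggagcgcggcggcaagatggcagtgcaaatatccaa
HSPA9: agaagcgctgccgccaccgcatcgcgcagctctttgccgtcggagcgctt

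A run of at least 5 pyrimidines, beginning with C at an annotated start and read on the transcribed strand, was present in 13 of the 33 host genes that the promoter table holds, or 39.4%. Among all 27305 genes in that table, 1404 genes had one, or 5.14%. The other hosts were not searched, for lack of an entry in that table. The snoRNAs of hosts with such a run had a median log2 fold change of -0.90, with 19 of 21 genes called lower. Those of hosts without it had a median of -0.83, with 24 of 32 called lower. Among all 18417 measured genes, 11.5% were called lower (limma adjusted p under 0.05), and the median was -0.05. Hosts of both kinds held snoRNAs that fell. The split depends on the annotated start, from which the runs of RPL3, SNHG1, RPL17 and GAS5 were 4, 3, 0 and 0. It therefore does not sort hosts by whether they make 5′ terminal oligopyrimidine transcripts, and the difference in medians was not tested. The search was added after the values were seen.

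Outside the 4 clusters, 54 of 69 box C/D genes were lower in YW3-56 than in DMSO and 1 was higher (limma adjusted p under 0.05), while 14 did not pass. Over all 18417 genes, 11.5% were called lower and 9.84% higher. The median log2 fold change of these 69 genes was -0.84, against -0.05 for all genes. Falls of at least 2-fold were called for 21 of the 69, against 0.527% of all genes. In 58 of the 69 genes the 3 YW3-56 arrays lay below all 3 DMSO arrays, compared with 21.4% of all genes. Of the 54 falls, 32 passed in all 14 alternative settings that included the gene, and 46 passed in all of these except a per-gene test without shared variance, which called 32 of 69.

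**Figure D1:**
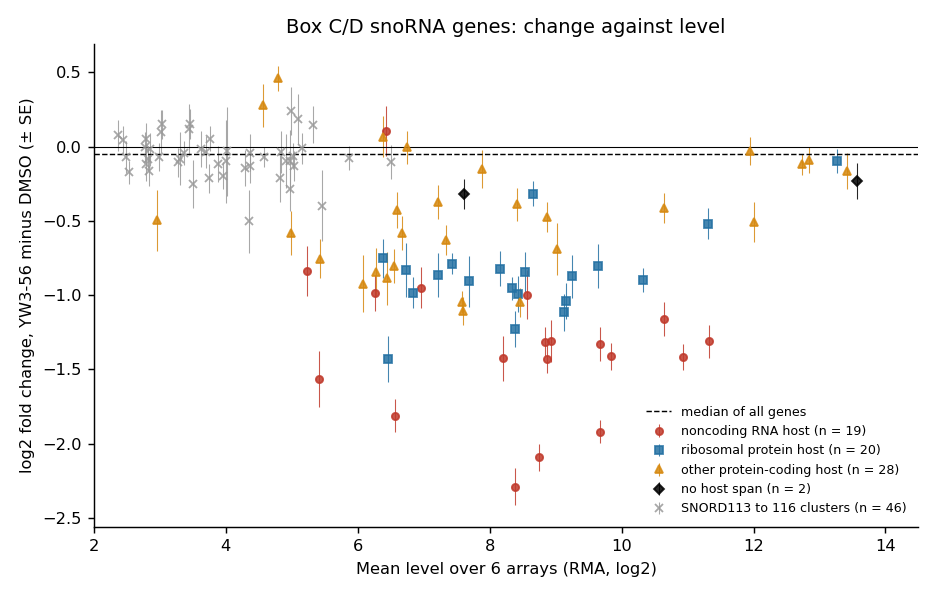
Log2 fold change (YW3-56 minus DMSO, ± SE) of each box C/D snoRNA gene against its mean level over 6 arrays, by the class of host gene, with the median of all genes as a dashed line. Genes outside the clusters lie mostly well below the dashed line, except the brightest and a few dim ones, whereas the 46 cluster genes scatter near it at low levels.

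The 5 largest falls belonged to snoRNAs in introns of noncoding host RNAs. In this class 18 of 19 genes were called lower and 0 higher, against 11.5% and 9.84% of all genes. The median log2 fold change of the class was -1.33. At least 2-fold falls were called for 14 of the 19, against 0.527% of all genes.

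SNORD12C, one of the snoRNAs inside the noncoding RNA ZFAS1, had levels of 7.41, 7.10 and 7.22 in YW3-56 cells and 9.75, 9.34 and 9.49 in DMSO cells. Every treated culture was lower than every DMSO culture by a wide margin. The difference was 4.88-fold (log2 fold change -2.29 ± 0.12 SE, limma adjusted p = 4.8e-05). It was the largest fall of any gene measured on these arrays.

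GAS5 is a noncoding RNA known to accumulate when growth stops, and its introns hold a row of snoRNAs. Of these, 7 had probe sets of their own symbol, and all 7 fell, by 1.31 to 2.09 on the log2 scale. SNORD75 had levels of 7.82, 7.59 and 7.72 in YW3-56 cells and 9.83, 9.69 and 9.88 in DMSO cells, a 4.26-fold fall (-2.09 ± 0.09, limma adjusted p = 1.4e-05). SNORD78 had levels of 8.72, 8.74 and 8.68 in YW3-56 cells and 10.57, 10.58 and 10.75 in DMSO cells (-1.92 ± 0.08, limma adjusted p = 1.2e-05). The spread among the 3 cultures of a group was small beside these differences. SNORD77 was the dimmest of the row, at 4.33, 4.59 and 4.97 in YW3-56 cells and 6.42, 5.87 and 6.28 in DMSO cells (-1.56 ± 0.19). SNORD74 was the brightest, at 10.28, 10.24 and 10.14 in YW3-56 cells and 11.56, 11.59 and 11.76 in DMSO cells (-1.42 ± 0.08). The dim and the bright members of the row thus fell by like amounts. The other GAS5 members were SNORD44 (-1.41 ± 0.09), SNORD81 (-1.33 ± 0.12) and SNORD79 (-1.31 ± 0.14).

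**Figure D2:**
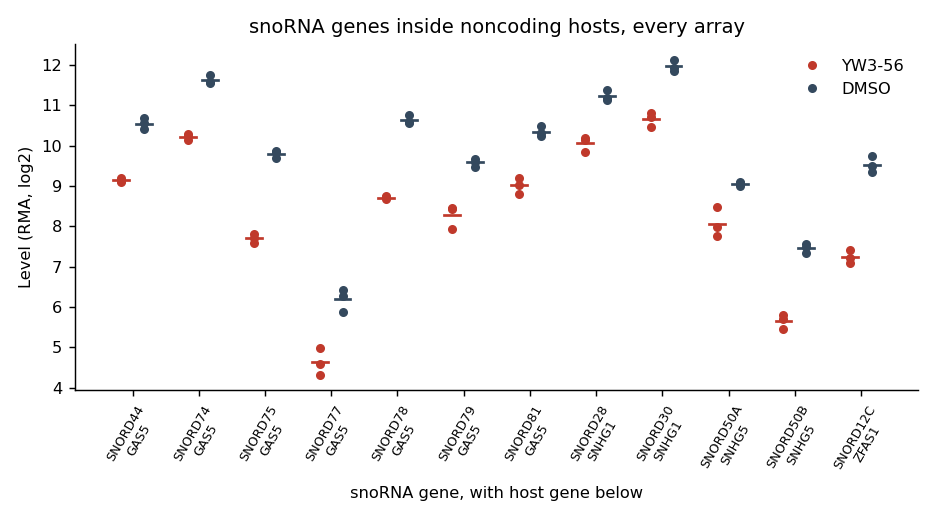
Levels (RMA, log2) on every array for 12 snoRNA genes inside the noncoding hosts GAS5, SNHG1, SNHG5 and ZFAS1; points are arrays and bars are group means. In each of these genes the 3 YW3-56 arrays lie below the 3 DMSO arrays, compared with 21.4% of all genes. Other noncoding hosts are not shown, among them SNHG30, where the groups of SNORD7 overlapped.

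SNHG1 introns hold SNORD30 and SNORD28, among others. SNORD30 had levels of 10.46, 10.72 and 10.80 in YW3-56 cells and 11.86, 11.93 and 12.13 in DMSO cells (-1.31 ± 0.11), and SNORD28 fell by 1.16 on the log2 scale. SNHG5 holds SNORD50A and SNORD50B, snoRNAs reported to bind K-Ras. SNORD50B had levels of 5.70, 5.81 and 5.44 in YW3-56 cells and 7.56, 7.34 and 7.49 in DMSO cells (-1.81 ± 0.11). SNORD50A changed less, at 7.97, 8.47 and 7.75 in YW3-56 cells and 9.08, 8.996 and 9.11 in DMSO cells (-0.997 ± 0.17), and its groups still did not overlap.

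The other noncoding hosts each held 1 or 2 measured snoRNAs. SNORD49A in SNHG29 (-1.43 ± 0.10), SNORD52 in SNHG32 (-1.43 ± 0.15) and SNORD104 in SNHG25 (-1.32 ± 0.10) fell by similar amounts. SNORD1A and SNORD1B in SNHG16 and SNORD60 in SNHG19 fell by 0.99, 0.84 and 0.95 on the log2 scale. The exception was SNORD7 in SNHG30, with levels of 6.55, 6.34 and 6.56 in YW3-56 cells and 6.48, 5.97 and 6.67 in DMSO cells (0.11 ± 0.17, limma adjusted p = 0.74). SNORD7 is known to guide methylation of the spliceosomal U6 RNA rather than ribosomal RNA. The other measured guides of U6, SNORD8 (-0.0047 ± 0.11) and SNORD94 (-0.15 ± 0.13), did not pass either. These 3 were picked out as a group after their values were seen.

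Among snoRNAs within ribosomal protein genes, 19 of 20 were called lower and 0 higher, against 11.5% and 9.84% of all genes. Their median was -0.87. SNORD54 in RPS20 changed most, at 5.76, 5.60 and 5.88 in YW3-56 cells and 7.54, 6.99 and 6.99 in DMSO cells (-1.43 ± 0.16). SNORD15A and SNORD15B in RPS3 fell by 1.23 and 0.95, SNORD4A, SNORD4B and SNORD42A in RPL23A by 0.99, 1.04 and 0.91, and SNORD43, SNORD83A and SNORD83B in RPL3 by 0.84, 0.79 and 0.82 on the log2 scale. Members of 1 host gene moved by nearly the same amount in RPL23A and RPL3.

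Values within RPL13A were less alike. This gene holds 4 measured snoRNAs that have been studied in metabolic stress. SNORD34 had levels of 8.63, 8.43 and 8.65 in YW3-56 cells and 9.96, 9.59 and 9.51 in DMSO cells (-1.12 ± 0.13), and SNORD35A fell by 0.90. SNORD32A fell by 0.52. SNORD33, the brightest of the 4, had levels of 13.17, 13.33 and 13.15 in YW3-56 cells and 13.35, 13.37 and 13.24 in DMSO cells, and its groups overlapped (-0.10 ± 0.08, limma adjusted p = 0.49).

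The third class, snoRNAs inside other protein-coding genes, had 17 of 28 genes called lower and 1 higher, against 11.5% and 9.84% of all genes. Its median was -0.48. These 28 include the pseudogenes SNORD13P1, SNORD13P2 and SNORD13P3, none of which was called. RABGGTB, a subunit of a Rab prenylation enzyme, holds 3 snoRNAs of this class. SNORD45B had levels of 7.03, 7.01 and 7.07 in YW3-56 cells and 8.11, 8.00 and 8.32 in DMSO cells (-1.11 ± 0.09), and SNORD45C fell by 0.47. The bright SNORD45A had levels of 11.79, 12.003 and 12.01 in YW3-56 cells and 11.97, 11.85 and 12.08 in DMSO cells (-0.03 ± 0.10). NCL, which encodes the nucleolar protein nucleolin, holds SNORD20 and SNORD82, which fell by 0.92 and 0.58. RACK1, a ribosome-associated scaffold gene, holds SNORD96A and SNORD95, which fell by 1.05 and 0.41. The call of SNORD95 was lost without YW3-56 replicate 1, 2 or 3 (limma adjusted p of up to 0.0748) and in the per-gene test. SNORD37 in the elongation factor gene EEF2 fell by 0.84, and SNORD59A and SNORD59B in the ATP synthase gene ATP5F1B by 0.76 and 0.89.

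SNORD63 was the only box C/D gene called higher. It lies within HSPA9, a mitochondrial chaperone gene. Its levels were 5.07, 4.87 and 5.09 in YW3-56 cells and 4.52, 4.59 and 4.55 in DMSO cells (0.46 ± 0.08, limma adjusted p = 0.006). The groups did not overlap, but the probe set was dim, at the 1.46 percentile of all genes. HSPA9 itself changed by -0.08 ± 0.07.

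Several measured snoRNAs are known for processing of the ribosomal RNA precursor. SNORD14C and SNORD14E, copies of U14 inside the chaperone gene HSPA8, were lower in YW3-56. SNORD14C had levels of 11.48, 11.85 and 11.93 in YW3-56 cells and 12.08, 12.29 and 12.41 in DMSO cells (-0.51 ± 0.14, limma adjusted p = 0.029). SNORD14E fell by 0.69. Both calls were lost when YW3-56 replicate 1 or 2 or DMSO replicate 2 or 3 was left out, with adjusted p of up to 0.0975 for SNORD14C and 0.0841 for SNORD14E.

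SNORD13, which is U13 and is transcribed from its own promoter, had levels of 13.20, 13.50 and 13.68 in YW3-56 cells and 13.63, 13.70 and 13.74 in DMSO cells. Its groups overlapped (-0.23 ± 0.12, limma adjusted p = 0.25). Its annotated pseudogene copy SNORD13P3 had nearly the same profile, at 13.12, 13.33 and 13.54 in YW3-56 cells and 13.35, 13.54 and 13.60 in DMSO cells. The pseudogenes SNORD13P1 (-0.50 ± 0.21) and SNORD13P2 (0.06 ± 0.14) did not pass, although SNORD13P1 had an adjusted p of 0.0427 in limma with replicate number as a block.

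Probe sets that the annotation gives to several genes are not members, but they show further box C/D RNAs. There were 49 such probe sets with 37 distinct profiles, fitted together with all 33297 probe sets, of which 6.5% were called lower. Outside the clusters, 17 of 25 profiles were lower and 0 higher, with a median log2 fold change of -0.80. The 5 probe sets for the U3 genes SNORD3A to SNORD3D shared a profile of 11.25, 11.80 and 11.84 in YW3-56 cells and 11.66, 12.33 and 12.50 in DMSO cells, which overlapped (-0.53 ± 0.25, limma adjusted p = 0.26). The probe set annotated to both SNHG1 and SNORD22, which is U22, had levels of 8.08, 7.94 and 8.03 in YW3-56 cells and 9.50, 9.26 and 9.45 in DMSO cells (-1.39 ± 0.09). Of the profiles shared with SNHG1 5 of 6 were lower, as were 3 of 3 shared with GAS5, led by SNORD31 (-1.77 ± 0.09) and SNORD76 (-1.64 ± 0.10). Of the 12 cluster profiles, 0 were called by limma and 0 had an unadjusted p under 0.05.

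Host genes with a probe set of their own symbol could be set beside their snoRNAs. This gave 32 pairs in 22 hosts, with pseudogenes left out. Across the pairs the median log2 fold change was -0.83 for the snoRNA and -0.05 for the host. With each of the 22 hosts counted once, the host median was -0.11. The host gene itself was called lower in 7 of 22 cases and higher in 2, against 11.5% lower and 9.84% higher among all genes. Most of these hosts lie in the brightest 25% of genes, where 19.9% were lower and 15.3% higher. The lower call of SNHG29 (adjusted p = 0.0497) was lost when any of the 6 arrays was left out (adjusted p of up to 0.187), and that of DIPK1A when any YW3-56 array was left out (adjusted p of up to 0.0818). Of the 26 snoRNAs called lower in these pairs, 18 lay in a host that was not called, 8 in a host that was lower and 0 in a host that was higher. The snoRNA had the more negative change in 26 of 32 pairs, and the median difference over all 32 pairs, snoRNA minus host, was -0.75 on the log2 scale. These pair differences were not tested.

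RPS3 is an example of the contrast. The mRNA had a log2 fold change of 0.04 ± 0.07 (limma adjusted p = 0.77), while SNORD15A in its intron had levels of 7.78, 7.78 and 7.76 in YW3-56 cells and 9.22, 8.72 and 9.05 in DMSO cells. None of the 6 measured ribosomal protein hosts passed the limma test, with 1 at an unadjusted p under 0.05, and their changes ran from -0.28 to 0.04, while all 11 snoRNAs inside them were called lower, by 0.79 to 1.43. Of these 6 hosts, 5 had mean levels above 12, between 12.05 and 13.51. Bright probe sets may respond less than their transcripts do, and the part of this in the contrast was not tested. RPL17, at a mean level of 7.13, changed by -0.28 ± 0.08 (limma adjusted p = 0.0513, and 0.033 with replicate number as a block), and SNORD58A inside it by -0.83 ± 0.18, a call lost without YW3-56 replicate 3 (adjusted p = 0.0549). HSPA8 likewise changed by 0.15 ± 0.07, and ZFAS1 by -0.23 ± 0.09, against -2.29 for its SNORD12C. SNORD21 lies within the spans of both DIPK1A (-0.42 ± 0.10) and the ribosomal protein gene RPL5 (-0.02 ± 0.07), and it fell by 1.05. By the rule of the longest gene it was counted under DIPK1A, among the 8 falls in a lower host. RPL5 is thus not among the 6 ribosomal protein hosts.

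In a few pairs the host moved and the snoRNA moved less. WDR43, a gene for a processome protein, fell by 0.83, while SNORD53 inside it changed by -0.39 ± 0.11. The call of SNORD53 was lost when YW3-56 replicate 1, 2 or 3 or DMSO replicate 2 or 3 was left out, with adjusted p of up to 0.103. TNPO2, a nuclear import receptor gene, fell by 0.40, against -0.09 ± 0.09 for SNORD41. CHD8, a chromatin remodeller gene, and SIPA1L1 rose by 0.38 and 0.37, while SNORD8 and SNORD56B inside them did not pass. The call of CHD8 was lost without YW3-56 replicate 3 or DMSO replicate 2 (adjusted p = 0.051 and 0.0533), and that of SIPA1L1 was kept without DMSO replicate 1 and lost without any other array (adjusted p of up to 0.123).

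**Figure D3:**
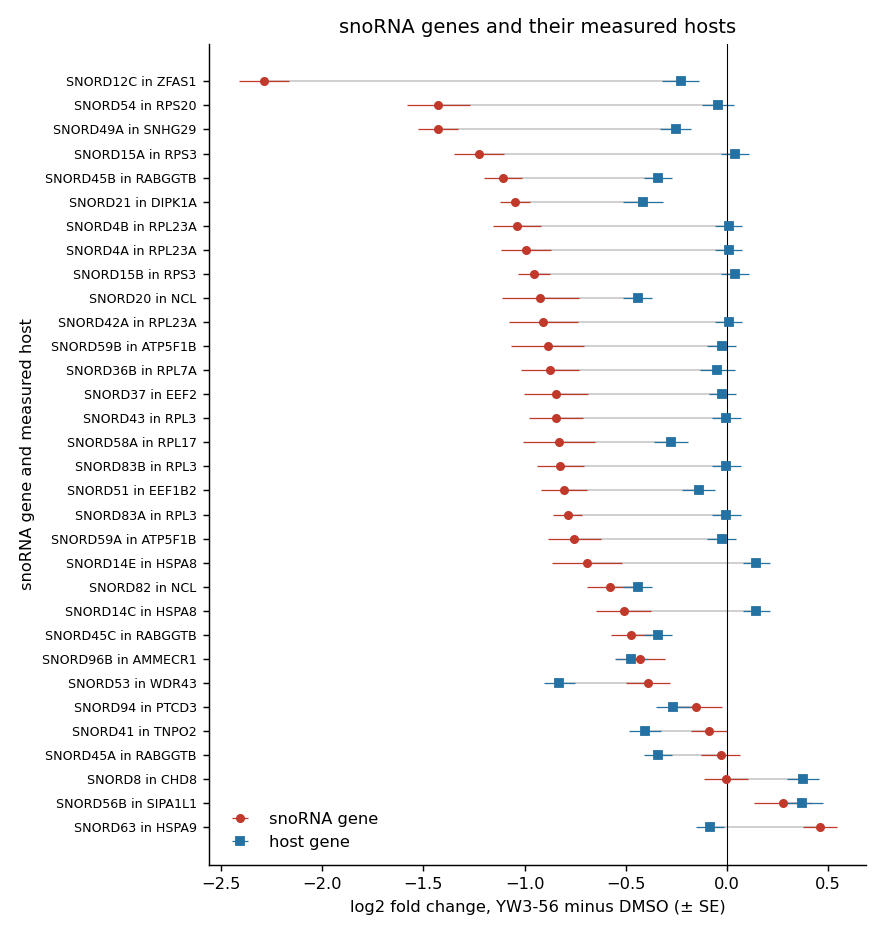
Log2 fold change (YW3-56 minus DMSO, ± SE) of 32 snoRNA genes (circles) and of the measured host gene around each (squares), ordered by the snoRNA's change. Most circles lie between -0.4 and -1.5 while most squares lie near 0, and the order is turned for SNORD41, SNORD45A, SNORD53, SNORD63, SNORD94 and SNORD96B.

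No gene of the 4 tandem clusters passed the test. In limma 0 of the 46 were called lower or higher, the lowest adjusted p was 0.144, and 1 had an unadjusted p under 0.05. Of all genes in the lowest 25% by level, where these 46 lie, 2.15% were called lower and 1.72% higher. Medians were 0.09 for SNORD113 (2 genes), -0.15 for SNORD114 (4 genes), -0.04 for SNORD115 (20 genes) and -0.10 for SNORD116 (20 genes). In 3 of the 46 genes the YW3-56 arrays lay below all DMSO arrays, compared with 8.71% of all genes in the lowest 25%. Fold changes were below 0 in 35 of the 46 genes and in 2983 of those 4604 genes. The cluster genes were dim on every array, with a median level of 3.82 and a highest mean level of 6.51, and 46 of 46 stood in that lowest 25%. The files hold no detection call, so whether these RNAs were present was not tested.

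None of the members with the largest changes in each cluster passed the limma test. SNORD116-14 had levels of 4.50, 3.96 and 3.83 in YW3-56 cells and 4.57, 4.26 and 4.96 in DMSO cells (-0.50 ± 0.21, limma adjusted p = 0.14). SNORD116-20 had levels of 5.69, 4.63 and 5.45 in YW3-56 cells and 5.72, 5.69 and 5.55 in DMSO cells (-0.40 ± 0.24), where YW3-56 replicate 2 was low. SNORD116-10 changed by -0.21 ± 0.10. The groups overlapped in the first 2 of these and not in SNORD116-10.

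SNORD115, whose copies resemble each other closely, had its largest change in SNORD115-33 (-0.25 ± 0.16), followed by SNORD115-44 (0.19 ± 0.17) and SNORD115-8 (-0.17 ± 0.08). In SNORD114 the values were -0.29 ± 0.14 for SNORD114-3, -0.21 ± 0.16 for SNORD114-2 and -0.08 ± 0.08 for SNORD114-26. The only measured SNORD113 genes were SNORD113-4 (0.24 ± 0.16) and SNORD113-3 (-0.06 ± 0.09). With array weights 5 cluster genes were called lower, without YW3-56 replicate 1 there were 2, and without DMSO replicate 1 there was 1. The shares of all genes called in these fits are not given here, so these counts have no background beside them.

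**Figure D4:**
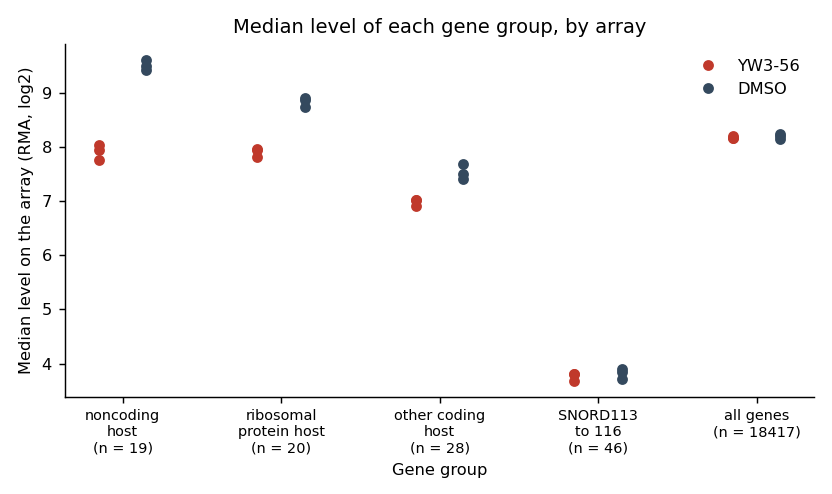
Median level (RMA, log2) on each of 6 arrays for box C/D genes by host class, for the SNORD113 to SNORD116 clusters and for all genes. The YW3-56 medians lie below the DMSO medians in the 3 host classes and overlap with them in the clusters, where each YW3-56 median is lower than that of the DMSO array of the same number by less than 0.1.

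The genes outside the clusters spanned all levels. In the lowest 25% of genes by level, 16 of 22 were called lower and 1 higher, against 2.15% of all genes there called lower. In the next 25%, 8 of 11 were lower, against 6.41% of all genes. In the next, 22 of 22 were lower, against 17.6%, and in the brightest 25%, 8 of 14 were lower, against 19.9%. In a narrower comparison over the range both groups share, chosen after the values were seen, 13 snoRNA genes outside the clusters had mean levels from 4.57 to 6.46. Of these, 10 were called lower and 1 (SNORD63) higher, against 2.15% and 1.72% of all genes in the lowest 25%. Their median was -0.84. The 13 leave out the uncalled pseudogenes SNORD13P1 and SNORD13P2. With them 10 of 15 were lower, from a level of 2.96 up, with a median of -0.76. The 15 cluster genes from 4.57 to 6.51 had a median of -0.08, and 0 were called by limma. The median SE of a fold change was 0.16 in the first of these groups and 0.14 in the second. Median levels were 6.08 outside the clusters and 5.02 in them, so the groups were not matched in level. The difference between the groups is given as counts and medians and was not tested.

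Between mean levels of 8 and 10, all 24 genes outside the clusters were called lower, with a median of -1.04, against 17.1% of all genes at those levels. Above a level of 12, 1 of 6 was called lower, with a median of -0.14, against 11.8% of all genes at those levels. Those 6 were SNORD13, SNORD13P3, SNORD33, SNORD41, SNORD57 and SNORD14C. SNORD57, inside the gene of the core protein NOP56, had levels of 12.69, 12.72 and 12.62 in YW3-56 cells and 12.82, 12.74 and 12.84 in DMSO cells (-0.12 ± 0.07). The highest value on any array was 14.69. Across the 63 genes below a level of 12, change and level correlated weakly (Pearson r = -0.29, Spearman rho = -0.31), and across all 69 the values were 0.02 and -0.08. These are descriptions over genes that share arrays and in part host transcripts.

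Other small RNA classes were counted on the same arrays, against 11.5% lower and 9.84% higher among all genes. Of 61 H/ACA snoRNA genes (SNORA), which guide pseudouridylation, 23 were lower and 3 higher, with a median of -0.17. Of 15 spliceosomal RNA genes (RNU), 4 were lower and 0 higher, and of 16 Cajal body RNA genes (SCARNA) 0 were called in either direction by limma, with 2 at an unadjusted p under 0.05. The difference between these classes and the box C/D genes was not tested.

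Some genes for box C/D proteins passed the test. Of 25 measured genes in lists of core, assembly, cap and transport, and processing proteins, 8 were lower and 2 higher, with a median of -0.18, against 11.5% lower and 9.84% higher among all genes. In the brightest 25% of genes, where 18 of the 25 lie, 19.9% were lower. The count of lower genes was 4 without YW3-56 replicate 2 or 3 and 5 without YW3-56 replicate 1 or DMSO replicate 2. Among the core proteins, NOP58 had a mean of 11.23 ± 0.05 in YW3-56 cells and 11.69 ± 0.04 in DMSO cells (SD, n = 3 arrays each; log2 fold change -0.45 ± 0.07, limma adjusted p = 0.0029), and FBL, the methylase fibrillarin, changed by -0.20 ± 0.07 (limma adjusted p = 0.089). FBL passed in limma with a trended and robust prior (adjusted p = 0.010) and with array weights (adjusted p = 0.046). It also passed in the per-gene test without shared variance (adjusted p = 0.047), and in no other setting. NOP56 and SNU13 had no probe set of a single symbol.

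Of 10 assembly genes 5 were lower and 1 higher. ZNHIT6 (-0.63 ± 0.09) and NUFIP1 (-0.59 ± 0.10), factors that bring the core proteins together, fell most, followed by NOLC1 (-0.50 ± 0.11), which encodes a nucleolar snoRNP chaperone, RUVBL2 (-0.27 ± 0.07), an AAA+ ATPase, and NOPCHAP1 (-0.26 ± 0.07). ZNHIT3, which stabilises NUFIP1, rose by 0.42 ± 0.08. RUVBL1 (-0.32), PIH1D1 (-0.19), RPAP3 (-0.18) and COIL (-0.06) did not pass. The calls of RUVBL2 and NOPCHAP1 were lost without any single array other than DMSO replicate 1, and when arrays were centred on their medians, with adjusted p of up to 0.0992. That of NOLC1 was lost without YW3-56 replicate 2 or 3 (adjusted p of up to 0.069).

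For release and trimming, the exonuclease genes XRN2 (-0.43 ± 0.07) and EXOSC10 (-0.29 ± 0.07) were lower, the second not without YW3-56 replicate 1, 2 or 3 or DMSO replicate 2 (adjusted p of up to 0.0664). TENT4B, a poly(A) polymerase that marks nuclear RNAs for decay, was higher (0.55 ± 0.08). The lariat debranching enzyme gene DBR1 (-0.14), AQR (0.06), XRN1 (0.25, with an adjusted p of 0.0746, and 0.0391 with replicate number as a block), DIS3 (-0.15) and PARN (0.15) did not pass. None of the 5 cap and transport genes passed the limma test, with 1 at an unadjusted p under 0.05, and their changes lay between -0.22 for PHAX and 0.07 for XPO1.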

How the data were processed

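The deposited series table gives log2 values of 33297 probe sets on 6 arrays. The authors made them with RMA and affy, per the submitters' processing notes. The sources used here give no versions. Names come from the platform's probe annotation, which can be old. It gives a single symbol for 19460 probe sets, several for 1754 and none for 12083. For each of 18417 genes the brightest probe set by mean of 6 arrays was used. YW3-56 was compared with DMSO in limma 3.58.1 (R 4.3.3, lmFit and eBayes, no covariate, no filter), two-sided, with Benjamini-Hochberg adjustment over all genes and calls at an adjusted p under 0.05. The script was tested on simulated data. A probe set's brightness does not rank RNA amounts between genes, and the number of arrays limits the precision.

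A host was the longest measured RefSeq gene whose span holds the snoRNA or, with none measured, the longest unmeasured one. The planned match of strand was not made, because the gene table has no strand. Named genes were the 12 largest called rises and falls outside the clusters, the 10 brightest, the U3, U8, U13, U14 and U22 genes, the 3 largest changes per cluster, members of the 5 richest hosts (for the cluster hosts SNHG14 and MEG8, as counts) and the protein lists. Members beyond this rule, named beside their hosts, were chosen after their values were seen. SNORD118 (U8) was not analysed here. The members of 1 of the richest hosts are not reported here by name. Members and lists were chosen with earlier results of these data known.

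The labels number the biological replicates. Deviations from the group means correlated at 0.539, 0.37 and 0.102 between same-numbered arrays, and at 0.416 between YW3-56 replicate 2 and DMSO replicate 3. All same-numbered values were above 0.1, so the number was used as a block in an alternative fit. The other alternatives were a second quantile normalization, median centring, dim genes left out, averaged probe sets, other variance priors, array weights and each array left out.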

Additional observations from a re-analysis of the deposited data

How the results depend on the processing

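Outside the clusters, the count of box C/D genes called lower was 54, and it lay between 47 and 56 in the fits on all genes, except in the per-gene test without shared variance, which called 32. With dim genes left out, 40 of the 47 remaining genes were lower and 0 higher, and no cluster gene was left to count. The replicate block gave 56 lower genes outside the clusters, adding SNORD117 and SNORD13P1, ended the call of the host SNHG29 and called the hosts RPL17 and PTCD3 and the gene XRN1. It changed no other call of a member, host or listed protein gene. Array weights called 2 genes higher outside the clusters and 5 lower within them. Leaving out single arrays gave 47 to 54 lower genes outside the clusters, 0 to 2 lower within them, 0 to 2 higher hosts and 4 to 8 lower box C/D protein genes. Shares of all genes called in the alternative fits are not given here, so these counts were not set against a background. The median outside the clusters was -0.90 without dim genes and -0.72 with array weights, and ran from -0.94 to -0.78 when single arrays were left out. No called gene named here changed sign in any of these settings. The arrays give no detection call, so changes of dim probe sets, the clusters included, could not be separated from their background.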
